A study of Mus musculus with 19 samples.

Results

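The sequences described here are the short sperm reads that had no place among the annotated small RNAs. They were chosen by their counts and by their letters: distinct reads of 15 to 24 nt, not ending in CCA, with 10 or more reads in at least 4 of 19 libraries, that matched no GENCODE miRNA, rRNA, mitochondrial rRNA or tRNA, snoRNA, snRNA, scaRNA, ribozyme or misc_RNA transcript in sense, allowing 1 mismatch. Of 158815 sequences of 15 to 45 nt that reached the same counts, 45931 were 15 to 24 nt long. Of those, 15345 matched such a transcript, 142 were unmatched but ended in CCA, the letters added to the 3′ end of mature tRNAs, and 30444 were unmatched and are described. The transcripts matched against did not include 28S rRNA or most nuclear tRNAs, so fragments of these molecules, where present, count as unmatched. The annotated 18S rRNA transcript, CT010467.1, was read on the strand opposite to its annotation, which carries the rRNA.

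The libraries were made from sperm of wild-type C57BL/6J mice that were 8 weeks old when they began 4 weeks of oral gavage with corn-oil vehicle (control) or with dicyclohexyl phthalate (DCHP), a plasticizer. Each exposure was sequenced by traditional small RNA sequencing (5 control and 5 DCHP libraries) and by PANDORA-seq (4 control and 5 DCHP libraries), in which RNA is treated with T4 polynucleotide kinase and the demethylase AlkB before the library is made. Because every sample carries the same treatment label (DCHP), the exposures were told apart by sample titles. Libraries held 21588335 to 56506344 reads (median 37199720), and levels are given as RPM, the reads of a sequence scaled to the total reads of its library. The study describes the sperm libraries as biological replicates of mice, pooling is not given in the sources used here, and the labels do not tie libraries to animals.

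Sperm carry little intact mRNA and are rich in short RNA, including fragments of tRNAs and rRNAs, miRNAs, and remnants of piRNAs, which guide silencing of transposons in the germ line and often begin with uridine. Fragments that end in a phosphate or carry methylated bases are poor substrates for standard library making. AlkB removes some of these methyl groups, and the kinase restores ends that adapters can be joined to, so the methods sample different parts of the same RNA. In these libraries, the summed level of 3 sperm-enriched miRNA hairpins (Mir34b, Mir34c and Mir449a) was 0.902 to 6.46 RPM in PANDORA-seq and 87.1 to 462 RPM in traditional libraries. The 5 hairpins used for epididymal epithelium summed to 2.63 to 42.8 and 553 to 4430 RPM, those of blood cells (2) to 0.634 to 2.43 and 36.3 to 157 RPM, and those of smooth muscle (2) to 2.60 to 112 and 1366 to 6928 RPM. In PANDORA-seq, the sperm hairpins reached 1.06 RPM in control, and every DCHP library lay above that. For the other markers the exposures overlapped in PANDORA-seq. Their highest levels in control and DCHP were 8.16 and 42.8 RPM (epididymal epithelium), 14.3 and 112 RPM (smooth muscle) and 2.27 and 2.43 RPM (blood cells). In traditional libraries the exposures overlapped for every marker set. Markers of other cells were thus present in the sperm libraries. The part of these markers in the results, including the comparisons of DCHP with control, was not tested.

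The most abundant sequences fell into few families. A family here is a set of members connected by containment, each lying whole inside another or holding it. Names give the rank of a sequence by its mean level over the 4 groups. The 10 highest members and the longest member of each of the 5 leading families are printed, with the most abundant member of each, to show which reads lead and how far a family extends. Capitals mark letters that the sequences printed here for a family share. In family 1 they mark only those that sequence 4463, printed further below, shares too.
sequence 1: tgTGGGGGGAACCTCCGCGTCGgt
sequence 2: TGGGGGGAACCTCCGCGTCGgtg
sequence 3: TGGGGGGAACCTCCGCGTCGgt
sequence 5: gTGGGGGGAACCTCCGCGTCGgt
sequence 10: gTGGGGGGAACCTCCGCGTCGgtg
sequence 7: tTCGATGTCGGCTCTTCCTAT
sequence 8: TCGATGTCGGCTCTTCCTAT
sequence 87: tcctTCGATGTCGGCTCTTCCTAT
sequence 4: cGCGACCtcagatcaga
sequence 9: cGCGACCtcagatcagacg
sequence 873: acgtgGCGACCcgctgaatttaag
sequence 6: TACCGGGTGCTGTAGGCTT
sequence 156: gggaaTACCGGGTGCTGTAGGCTT
sequence 14: AAACTGCCTGCATCTC
sequence 3455: cacggcagAAACTGCCTGCATCTC

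Sequences 1, 2, 3, 5 and 10 belong to family 1 and differ only by bases at their ends. Sequences 7, 8 and 87 belong to family 2, sequences 4, 9 and 873 to family 3, sequences 6 and 156 to family 4, and sequences 14 and 3455 to family 5. In family 3 the most abundant and the longest member share a run of only 6 letters and are joined through other members. The run stands at different places in these members, with other letters on both sides, so it need not mark where they join. Sequence 9 ends in acg, the letters with which sequence 873 begins. A family is a chain of overlapping reads, and whether its members are fragments of a single molecule was not tested.

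The members made up 9.28% to 11.7% of all reads in PANDORA-seq control libraries (mean 10.6% ± 1.34, SD, n = 4) and 6.63% to 11.0% in PANDORA-seq DCHP libraries (9.01% ± 1.68, SD, n = 5). In traditional RNA-seq they made up 5.24% to 8.11% in control (6.28% ± 1.26, SD, n = 5) and 5.56% to 8.44% in DCHP libraries (7.05% ± 1.32, SD, n = 5). Control and DCHP ranges overlapped in both methods. Of reads of 15 to 24 nt alone, members were 54.3% to 68.4% in PANDORA-seq and 18.4% to 39.0% in traditional libraries, ranges that did not overlap. Per read matching a miRNA hairpin, counted here with another matcher than the study's miRNA total, members were 8.24 ± 1.82 in PANDORA-seq control (SD, n = 4) and 7.57 ± 1.25 in PANDORA-seq DCHP libraries (SD, n = 5), against 0.985 ± 0.456 and 1.04 ± 0.322 (SD, n = 5 each) in traditional RNA-seq. These shares are descriptions with no test, because the members were chosen by their counts in these libraries.

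Few members were shared evenly by all libraries. Of the 30444 members, 1751 (5.75%) had 10 or more reads in every library, 5360 reached that count in exactly 4 libraries, and 7774 further unmatched sequences stopped just short, at exactly 3. The median number of reads summed over the libraries was 97.0 just inside and 77.0 just outside this limit, against 195 over all members. As many as 18306 members (60.1%) reached 10 reads in no PANDORA-seq library and so entered through the traditional libraries, while 2119 (6.96%) reached it in no traditional library. A set of 3291 members had 10 or more reads in each of the 10 traditional libraries and in none of the 9 PANDORA-seq libraries, and 419 showed the opposite pattern.

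By number, members were spread over all lengths, from 2763 of 17 nt (9.08%) to 3806 of 24 nt (12.5%). By reads the methods differed in shape. In PANDORA-seq the share of members' reads was highest at 24 nt, with a mean of 26.9% ± 5.40 (SD, n = 4) in control and 23.4% ± 3.76 (SD, n = 5) in DCHP libraries, and at 15 nt it was 3.32% ± 0.933 and 3.45% ± 0.510. In traditional RNA-seq it was highest at 17 nt, at 19.7% ± 3.39 in control and 18.5% ± 1.25 in DCHP (SD, n = 5 each), and reads of 24 nt were 8.15% ± 0.457 and 8.77% ± 1.18. At 17 nt the PANDORA-seq share was 3.98% to 5.73% over all 9 libraries and the traditional share 15.6% to 24.8% over all 10, with no overlap. Sequence 4, of 17 nt, and sequence 1, of 24 nt, are the most abundant members of those lengths. Sequence 1 had a mean of 19357 RPM in PANDORA-seq control, where members made up 10.6% of all reads. Sequence 4 had a mean of 6406 RPM in traditional control, where members made up 6.28%. A large part of each peak was thus a single sequence, and the shares were not computed without these sequences.

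Thymine, which stands for uridine in RNA, was the most common first base. It began 13771 members (45.2%), against 6039 for A, 5404 for C and 5230 for G. The share was 33.2% among members of 15 nt and 56.2% among those of 24 nt. Matched sequences of 15 to 24 nt began with T in 43.5% and unmatched sequences of 25 to 45 nt in 47.3%, so the members were close to both in this respect. At the last base T stood in 26.1% of members, near C (25.3%) and below G (31.0%). By reads, T-first members took 62.7% to 69.8% of members' reads in PANDORA-seq control and 56.4% to 67.5% in PANDORA-seq DCHP libraries, against 18.3% to 24.8% in traditional control and a mean of 22.4% ± 2.57 (SD, n = 5) in traditional DCHP libraries. Reads beginning with C showed the opposite order, at 3.20% to 6.46% in PANDORA-seq and 29.2% to 42.8% in traditional libraries. The libraries of the methods did not overlap for either base, while those of control and DCHP did within each method. These shares include sequence 1, which begins with T, and sequence 4, which begins with C.

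The 30444 members formed 7278 families, of which 4150 were single sequences and 37 held 100 or more members (7905 together). The largest, family 2, held 905. Nesting was common, with 19974 members (65.6%) lying whole inside another member. Of all members, 15679 (51.5%) shared their first base with a longer member that begins with them, and 12748 (41.9%) shared their last base with a longer member that ends with them. Among the single sequences, 2241 began with T, and 600 of the 866 single sequences of 24 nt (69.3%) did so. The 5 families with the most reads, 1954 members in all, took 50.3% of the members' mean level.

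Family 1, with 394 members, alone took 24.3% of that level, and sequence 1 took 41.5% of the family. Its summed level was 61920, 61952, 20694 and 36802 RPM in the PANDORA-seq control libraries and 26814, 36510, 35220, 35187 and 24429 RPM in the DCHP libraries. In the traditional libraries it was 1648, 537, 1731, 782 and 1274 RPM in control and 399, 5289, 483, 530 and 1682 RPM in DCHP. Every PANDORA-seq library lay above every traditional library. Control libraries 1 and 2 of PANDORA-seq were the highest of the series, control library 3 lay below all 5 DCHP libraries, and the exposures overlapped.

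Sequence 1 itself had 24785, 24381, 10755 and 17508 RPM in PANDORA-seq control and 10634, 15529, 13570, 12786 and 12011 RPM in PANDORA-seq DCHP libraries. In traditional RNA-seq it had 536, 141, 446, 242 and 288 RPM in control and 69.8, 2030, 126, 142 and 383 RPM in DCHP libraries. The groups of the methods did not overlap. It was higher in PANDORA-seq by 5.87 ± 0.53 on the log2 scale (SE) in control and by 4.55 ± 0.78 in DCHP sperm (edgeR quasi-likelihood test, adjusted p = 2.62e-07 and 2.21e-05). Without traditional DCHP library 2 the value in DCHP sperm was 6.16, and with the replicate numbers as a block 5.78. With the miRNA total as library size the values were 8.13 and 6.87. Sequences 2, 3, 5 and 10, its neighbours in the family, were higher in PANDORA-seq by 3.61 to 6.50 in control and by 3.61 to 5.36 in DCHP sperm, all called. Without the same library the latter values were 4.73 to 6.36. A call here means a Benjamini-Hochberg adjusted p under 0.1 over all 158815 sequences and a change of more than 2-fold. The change with DCHP in PANDORA-seq was −0.58 ± 0.52 for sequence 1 (adjusted p = 0.927) and was not called.

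Family 2 took 11.0% of the members' level. Its summed level was 9479, 10905, 23724 and 15623 RPM in PANDORA-seq control and 16024, 8310, 20450, 12618 and 6637 RPM in PANDORA-seq DCHP libraries. In traditional RNA-seq it was 7252, 2556, 8759, 6068 and 1659 RPM in control and 3483, 3334, 6366, 1924 and 893 RPM in DCHP libraries. Within each exposure every PANDORA-seq library lay above every traditional library, narrowly in DCHP sperm (6637 against 6366 RPM). Sequence 7, its most abundant member with 18.2% of it, was higher in PANDORA-seq by 3.41 ± 0.65 in control and by 4.93 ± 0.63 in DCHP sperm (edgeR, adjusted p = 0.000122 and 1.34e-06), and by 5.62 and 7.23 with the miRNA total as library size.

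Sequences 7, 8 and 87 are exact parts of transcripts of 2 genes, Lars2 and AA474408. Lars2, at chr9:123366927-123462666 of GRCm38 on the plus strand, encodes the mitochondrial leucyl-tRNA synthetase, and AA474408, at chr7:110057987-110061325 on the minus strand, has the annotation class TEC, for transcripts that still need experimental evidence. Among members of 20 nt or longer, 313 matched Lars2 exactly and 126 matched AA474408. The Lars2 matches did not run along the mRNA: on the longest of its transcripts, of 3894 nt and 21 exons, all of them lay between positions 3030 and 3397. This is chr9:123461800-123462167, in exon 21, and the position with the most reads, 123462016, is in the untranslated region. The AA474408 matches lay between positions 1464 and 1621 of its single exon, at chr7:110059705-110059862. Their summed level was 6020 to 19520 RPM for Lars2 in PANDORA-seq and 500 to 5173 RPM in traditional libraries. Of these members, 100 matched both genes, with a summed mean level of 5732 RPM, while 213 matched Lars2 without AA474408 (873 RPM) and 26 matched AA474408 without Lars2 (9.76 RPM). No genome was searched, so these matches do not say which locus the reads came from.

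Family 3 ran the other way. Its summed level was 2594, 2698, 2879 and 2462 RPM in PANDORA-seq control and 2514, 2074, 3044, 2648 and 2337 RPM in PANDORA-seq DCHP libraries. In traditional RNA-seq it was 10079, 11151, 9963, 9264 and 18753 RPM in control and 11324, 10354, 10909, 12268 and 21887 RPM in DCHP libraries. Every traditional library lay above every PANDORA-seq library, and library 5 was the highest of both traditional groups. Per miRNA read, however, the methods were close, at 0.207 ± 0.0323 and 0.212 ± 0.0214 in PANDORA-seq control and DCHP against 0.184 ± 0.0998 and 0.185 ± 0.0291 in traditional RNA-seq.

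Sequence 4, which took 42.0% of family 3, had 93.3, 101, 55.6 and 100 RPM in PANDORA-seq control and 106, 252, 77.5, 193 and 288 RPM in PANDORA-seq DCHP libraries. It had 5277, 6028, 5299, 5508 and 9916 RPM in traditional control and 6022, 5693, 5568, 6035 and 7144 RPM in traditional DCHP libraries. It was lower in PANDORA-seq by −6.20 ± 0.53 in control and by −5.05 ± 0.50 in DCHP sperm on the log2 scale (edgeR, adjusted p = 2.39e-07 and 1.36e-07). With the miRNA total as library size the differences were smaller, at −3.87 and −2.51. In PANDORA-seq its level with DCHP differed by 1.07 ± 0.47 (adjusted p = 0.852), which was not called. The longest member of the same family, sequence 873, went the opposite way between methods, at 17.0 RPM against 0.808 RPM in control (log2 4.39 ± 0.48, adjusted p = 7.66e-07).

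Family 4, with 115 members and 63.1% of its level in sequence 6, had 3278 to 4096 RPM in PANDORA-seq control, 2827 to 6578 RPM in PANDORA-seq DCHP, 1031 to 2378 RPM in traditional control and 802 to 2573 RPM in traditional DCHP libraries. With 1 base cut from its 3′ end, sequence 6 matches the end of n-R5s194, a 5S rRNA gene of 119 nt at chr3:4338998-4339116 (GRCm38, plus strand), so it reads 1 base past the annotated end, and 30 members of the family match the same gene after a cut of 1 to 4 bases at an end. A single transcript was kept per member, so other 5S rRNA genes with this end may match equally. The shorter and longer forms of this end differed between methods. Sequence 6 had 3202, 2902, 3619 and 3520 RPM in PANDORA-seq control and 161, 198, 199, 205 and 124 RPM in traditional control libraries, and was higher in PANDORA-seq by 4.22 ± 0.42 in control and 4.76 ± 0.51 in DCHP sperm (edgeR, adjusted p = 4.24e-07 and 2.51e-07). Sequence 156, which holds sequence 6 with 5 more bases at its 5′ end and is also an exact part of a transcript of Tmem38b on chromosome 4, was lower in PANDORA-seq by −1.39 ± 0.43 and −1.72 ± 0.44 (adjusted p = 0.00618 and 0.00112). With the miRNA total as library size its direction turned, to 0.92 in control and 0.73 in DCHP sperm, while sequence 6 stood at 6.57 and 7.15.

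In RPM, family 5 was higher in every traditional library than in any PANDORA-seq library. It had 45.7 to 93.6 RPM in PANDORA-seq control and 50.1 to 165 RPM in PANDORA-seq DCHP libraries. In traditional RNA-seq it had 5893, 1186, 1569, 2475 and 1057 RPM in control and 1159, 11034, 4359, 3174 and 6251 RPM in DCHP libraries. The exposures overlapped, and DCHP library 2 was the highest. Per miRNA read the methods overlapped only across exposures. Family 5 then had 0.00541 ± 0.00162 reads per miRNA read in PANDORA-seq control (SD, n = 4) and 0.00858 ± 0.00445 in PANDORA-seq DCHP libraries, against 0.0426 ± 0.0434 in traditional control and 0.0784 ± 0.0747 in traditional DCHP libraries (SD, n = 5 each). Traditional control library 2, at 0.00696, lay below PANDORA-seq DCHP libraries 2, 4 and 5, at 0.0153, 0.00992 and 0.00846. Within each exposure every traditional library lay above every PANDORA-seq library, narrowly in control (0.00696 against 0.00688) and by more in DCHP sperm (0.0222 against 0.0153). Sequence 14, its most abundant member, was lower in PANDORA-seq by −5.53 ± 0.68 in control and −6.11 ± 0.71 in DCHP sperm (edgeR, adjusted p = 2.44e-06 and 5.02e-07), and by −3.42 and −3.61 with the miRNA total as library size. Only 4.35% of family 5 began with T, against 49.0% of family 1.

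Most members lay inside longer reads of the same libraries. Of the 30444 members, 24549 (80.6%) were part of an unmatched sequence of 25 to 45 nt in the same table. A longer unmatched read began at the same base for 18223 members (59.9%) and ended at the same base for 13969 (45.9%). Among members of 20 to 24 nt this held for 70.1% of those beginning with T, 69.1% with C, 64.6% with A and 62.1% with G. The longer unmatched sequences themselves began with T most often at 28 nt (70.2%) and 29 nt (69.1%), and less often from 31 nt on (43.3%). For 97 members the same sequence with CCA added was also in the table.

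Some members missed the annotated RNAs narrowly. Cutting 1 to 4 bases from an end left an exact match of at least 15 bases for 549 members, against 51 when the same search was run on the antisense strand. The cut was at the 3′ end for 403 and at the 5′ end for 146, and 172 ran past the annotated end of the transcript. The 549 members matched mainly miRNA hairpins (184), rRNA (151), mitochondrial rRNA (117), snoRNA (43) and mitochondrial tRNA (42). By level n-R5s194 (77 members, 2681 RPM) was far ahead of mt-Rnr2, the mitochondrial 16S rRNA (64 members, 76.1 RPM). Where several genes matched a member equally, only the first listed was kept. Of the 16334 members of 20 nt or longer, 695 matched with 2 mismatches on the sense strand and 38 on the antisense strand, among them 114 for n-R5-8s1, a 5.8S rRNA gene. These near matches are descriptions, since a chance match of this length was gauged only by the antisense strand.

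Matches to other transcripts were mostly on the sense strand too. Of the members of 20 nt or longer, 1352 matched a protein-coding gene exactly on the sense strand and 196 on the antisense strand. For lncRNAs and other RNAs the numbers were 1352 and 277, and for mitochondrial mRNAs 11 and 0. Pseudogenes differed, with 158 sense and 165 antisense. The genes with the most members after Lars2 were Gm26917 (158 members), AA474408 (126), the nuclear lncRNA Malat1 (101), the lncRNAs Gm49794 (96) and Gm21269 (90), and Neat1 (77), another nuclear lncRNA. Akr1b7, an aldo-keto reductase abundant in the vas deferens, had 75 members, and Crisp1, a protein secreted by the epididymis, had 41.

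Summed levels of members that match these genes were mostly higher in PANDORA-seq libraries. A match does not show that the reads came from the gene, because no genome was searched. Akr1b7 members summed to 65.9 to 127 RPM in PANDORA-seq control and 55.3 to 112 RPM in DCHP libraries, and to 5.05 to 58.3 and 5.97 to 22.4 RPM in traditional control and DCHP libraries. Crisp1 members summed to 48.4 to 143 RPM in PANDORA-seq and 4.33 to 24.8 RPM in traditional libraries, and Neat1 members to 41.8 to 199 and 0.699 to 8.62 RPM. The methods did not overlap for Crisp1 or Neat1. For Akr1b7 they did not overlap within either exposure, and overlapped only between PANDORA-seq DCHP (lowest 55.3 RPM) and traditional control libraries (highest 58.3 RPM). Akr1b7 and Crisp1 are made in the ducts that sperm pass through. In bulk samples fewer cells of a type and less RNA per cell cannot be told apart. Of 15 mRNAs of late spermatids, 6 had members (36 in all), summing to 4.71 to 12.4 RPM in PANDORA-seq and 3.50 to 7.80 RPM in traditional libraries, which overlapped, led by Odf1, a structural protein of the tail, and Smcp, a mitochondrial capsule protein, with 14 members each. Of 13 mitochondrial mRNAs, 4 had members (11 in all), summing to 2.52 to 12.7 and 0 to 1.48 RPM, led by mt-Co1 with 5.

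The comparison of methods was a description, because a sequence that entered through the libraries of a method had to be higher there. In control sperm, 25822 members (84.8%) were called between the methods, 4895 higher and 20927 lower in PANDORA-seq, where 85.9% of all 158815 sequences were called, 35.4% higher and 50.5% lower. In DCHP sperm, 26949 members (88.5%) were called, 5981 higher and 20968 lower, where 89.5% of all sequences were called, 38.9% higher and 50.6% lower. The median log2 difference was −3.99 and −4.16 over the members and −1.39 and −1.28 over all sequences. With the miRNA total as library size, the medians over all sequences became 0.942 and 1.21 and those over members −1.79 and −1.76, with 8671 members higher and 14608 lower in control (28.5% and 48.0%) and 9558 higher and 16015 lower in DCHP sperm (31.4% and 52.6%). Over all sequences that scaling called 47.8% higher and 35.5% lower in control and 50.1% higher and 38.0% lower in DCHP sperm, so the balance turned there and not among the members.

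Members that every library held did not enter through a single method. This condition drops sequences that are low in either method, so it also limits how far the methods can differ. Of the 1751 members with 10 or more reads in all 19 libraries, a set looked at after their values were seen, 537 (30.7%) were higher and 544 (31.1%) lower in PANDORA-seq in control sperm, with a median log2 difference of −0.09. Of all 10063 sequences that met the same condition, 40.2% were higher and 29.8% lower, with a median of 0.35. In DCHP sperm 656 members (37.5%) were higher and 524 (29.9%) lower, with a median of 0.21, against 43.3% and 27.7% of the 10063, with a median of 0.53. With the miRNA total as library size, 1187 members (67.8%) were higher and 139 (7.94%) lower in control, against 70.4% and 9.38% of the 10063, and 1310 (74.8%) and 158 (9.02%) in DCHP sperm, against 76.6% and 9.51%.

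The members with the smallest adjusted p between the methods (ties by the larger fold), 3 in each direction and exposure, are given as a description of levels. Sequences 315, 434, 517, 1382 and 1877 met the count rule only through the traditional libraries. Sequences 583 and 648 met it only through the PANDORA-seq libraries. Their place in the list is thus no evidence of how far apart the methods stood. The listed members are printed with the letters they share within a family in capitals, or else with the first base in capitals.
sequence 42: Tggagccgggcgtgga
sequence 79: Tcgtcgcgccgtcgg
sequence 323: Agaaaaggtgttggttgat
sequence 394: AGTCGGAACGGAACGGGACGggag
sequence 583: AGTCGGAACGGAACGGGACG
sequence 648: Gcgacgtcgctttttgatccttcg
sequence 125: Agtggtagaattctcg
sequence 315: Ctgggttgtggacttgggctggg
sequence 434: aTGGTTAGCACTCTGG
sequence 517: TGGTTAGCACTCTGG
sequence 1382: Agacgccggcgggag
sequence 1877: Aaggcagaggtagatggact

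The first 6 were higher in PANDORA-seq. Sequence 79 had 288, 294, 144 and 172 RPM in PANDORA-seq control and 1.40 to 3.23 RPM over the 5 traditional control libraries, a log2 difference of 6.56 ± 0.54 (edgeR, adjusted p = 2.28e-07). Sequence 42 had 303, 328, 362, 521 and 351 RPM in PANDORA-seq DCHP and 3.28, 4.82, 6.36, 5.62 and 4.08 RPM in traditional DCHP libraries, a log2 difference of 6.27 ± 0.51 (adjusted p = 5.02e-08). Sequence 648, of 24 nt, also matches part of a Lars2 transcript exactly. It was 17.7 ± 4.75 RPM in PANDORA-seq DCHP against 0.122 ± 0.0386 RPM in traditional DCHP libraries (SD, n = 5 each). The sequences 394 and 583 begin at the same base and belong to family 20.

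The last 6 were lower in PANDORA-seq. Sequence 125 had 0.354, 0.151, 0.185 and 0.301 RPM in PANDORA-seq control and 116, 94.1, 133, 115 and 100 RPM in traditional control libraries. It reached 10 reads in 6 PANDORA-seq libraries, 5 of them DCHP, and was lower in PANDORA-seq by −8.80 ± 0.62 in control and by −8.39 ± 0.65 in DCHP sperm on the log2 scale (edgeR, adjusted p = 2.28e-07 and 5.02e-08). Sequence 315 had 0, 0.0756, 0.139 and 0.142 RPM against 47.7, 49.9, 37.1, 50.7 and 56.8 RPM. No test is given for sequence 315, which reached 10 reads in 2 PANDORA-seq libraries and so met the rule on low counts through the traditional ones. Sequence 1382 had no read in the PANDORA-seq control libraries and a mean of 7.15 RPM in traditional control libraries. It reached 10 reads only in the 10 traditional libraries, so the rule admitted it through the method in which it is high, and no fold or test is given. The level of sequence 125 was 112 ± 15.1 RPM in traditional control and 150 ± 79.9 RPM in traditional DCHP libraries (SD, n = 5 each), where it ran from 52.7 to 260 RPM.

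With DCHP, few members changed in PANDORA-seq. Of 30444 members, 86 (0.282%) were called, 53 higher (0.174%) and 33 lower (0.108%), against 0.458% of all 158815 sequences, 0.382% higher and 0.0756% lower. The median log2 change was 0.00 over the members and 0.05 over all sequences. At an unadjusted p under 0.05 stood 1319 members (4.33%), against 5.03% of all sequences. None of the 10 most abundant members was among the 86. With the miRNA total as library size 96 members (0.315%) were called, against 0.542% of all sequences, and with TMM factors 61 (0.200%), against 0.329%. Among the 89523 sequences with 10 reads in at least 8 libraries, 16 of 15288 members were called (0.105%), against 0.206% of these sequences. Without control library 1, 3 or 4, 45, 55 or 57 members were called (410, 292 or 607 of all sequences), of which 35, 51 or 54 were among the 86. DESeq2 called 26 members, 19 of them among the 86, and 165 of all sequences. Among members the balance of directions was not stable. Without control library 3, 19 were higher (0.0624%) and 36 lower (0.118%), against 0.104% and 0.0800% of all sequences. With another filter on low counts, 40 were higher (0.134%) and 47 lower (0.157%), against 0.322% and 0.102% of all sequences. Over all sequences higher calls thus stayed the more common in both fits.

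The 3 members higher and the 3 lower with DCHP in PANDORA-seq that had the smallest adjusted p are printed with the part shared within a family, or in the last pair with the shared 3′ end, in capitals.
sequence 183: GGGGCGGGGGGCCCGGa
sequence 12988: GGGGCGGGGGGCCCGGg
sequence 575: Atcggtcgtccgacctgg
sequence 4463: tgTGGGGGGAACCTCCGCGTCGac
sequence 8259: tgAGAAGACGGCATAC
sequence 13319: aagcAGAAGACGGCATAC

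Sequence 183 had 15.8, 10.9, 9.32 and 22.9 RPM in PANDORA-seq control and 152, 202, 45.1, 149 and 195 RPM in PANDORA-seq DCHP libraries. All 5 DCHP libraries lay above all 4 control libraries, and it rose by 3.33 ± 0.52 on the log2 scale (edgeR, adjusted p = 6.53e-07). In traditional RNA-seq it had 0.864 to 13.4 RPM in control and 1.27 to 7.78 RPM in DCHP libraries, with a log2 change of −0.41 ± 0.66 (adjusted p = 0.917). Its G and C content was 94.1%. Sequence 12988, which ends in another base, had 0.0729 ± 0.0304 RPM in PANDORA-seq control (SD, n = 4) and 1.06 ± 0.292 RPM in DCHP libraries (SD, n = 5), but it met the rule through the 5 DCHP libraries in which it is high, so no test is given. It belongs to family 74 with sequence 183, and their reads are not independent of each other.

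Sequence 575 rose by 4.08 ± 0.65 (edgeR, adjusted p = 2.16e-06), but its level rested on DCHP library 5. It had 0.118, 0.0378, 0.116 and 0.0354 RPM in PANDORA-seq control and 0.169, 0.300, 0.629, 0.524 and 4.90 RPM in PANDORA-seq DCHP libraries. In the traditional DCHP libraries it had 1.28, 2.92, 6.44, 1.99 and 213 RPM, with the same library number highest. Without PANDORA-seq DCHP library 5 the log2 change was 2.38 and no longer called. Over the 53 higher members, library 5 held the highest level of 30, and 22 of the 53 had all DCHP libraries above all control libraries, as did 0.881% of all 158815 sequences and 0.591% of members. Of the 53, 46 met the entry rule without the PANDORA-seq DCHP libraries. The 53 members had a median length of 16.0 nt and a median G and C content of 66.7%, and 22.6% of them began with T, against 20 nt, 53.3% and 45.2% over all members. The 33 lower members had a median length of 22 nt and a median G and C content of 62.5%, and 66.7% of them began with T, so the median G and C content was above that of all members in both directions.

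The 33 lower members were carried by few control libraries. The highest level of 24 of them was in PANDORA-seq control library 1, of 4 each in control libraries 2 and 4, and of 1 in control library 3. All DCHP libraries lay below all control libraries for 1 of the 33, against 0.268% of all sequences and 0.246% of members. Without the PANDORA-seq control libraries, 18 of the 33 met the entry rule. Sequence 4463 is sequence 1 with other final letters. It had 12.5, 0.454, 0.0925 and 3.96 RPM in PANDORA-seq control and 0.106, 0.150, 0.402, 0.105 and 0.0680 RPM in PANDORA-seq DCHP libraries. Of the 6 libraries in which it reached 10 reads, 5 were control, so no test is given. Its level was led by control libraries 1 and 4.

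Sequences 8259 and 13319 share 14 letters at their 3′ ends. The whole of sequence 13319 and the shared letters of both are part of a primer strand used for Illumina flow cells. Sequence 8259 had 6.21, 0, 0.0231 and 1.98 RPM in PANDORA-seq control, and neither had a read in any DCHP library of either method. Both reached 10 reads in 4 libraries, all of them control, so the rule admitted them through the exposure in which they are high, and no fold or test is given. In all, 3 members ended in ggcatac, the last 7 of these letters, and their summed level was 10, 0, 0.0231 and 2.51 RPM in PANDORA-seq control and 2.20, 0.384, 0.484, 1.12 and 0 RPM in traditional control libraries. The same control libraries, 1 and 4, were high for another ending of family 1. Members of that family ending in ggc were 3.45%, 0.749%, 0.485% and 2.11% of those ending in ggc or ggt in PANDORA-seq control, and 0.401% to 0.835% in PANDORA-seq DCHP libraries. In traditional libraries this share was 3.33%, 1.82%, 2.78%, 2.96% and 0.771% in control and at most 1.85% in DCHP. Family 1 held 8 of the 33 lower members. Without control libraries 1 and 4, an alternative chosen after seeing the data, 16 members were called, 15 higher and 1 lower, of which 13 were among the 86. Over all sequences the same fit called 182, 167 higher and 15 lower, so lower calls were few there too.

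In traditional RNA-seq, 0 members and 0% of all sequences were called with DCHP by edgeR, in either direction (0% higher, 0% lower). At an unadjusted p under 0.05 stood 2600 members (8.54%), against 7.04% of all sequences, with a median log2 change of 0.21 over the members and 0.10 over all. DESeq2, with its own size factors, called 55 members, 5 higher (0.0164%) and 50 lower (0.164%), of 247 sequences in all. Over all sequences 0.0120% were higher and 0.144% lower, so the lean to lower calls was not particular to the members. The 3 members with the smallest unadjusted p are printed with the first base in capitals.
sequence 10163: Ccgggacgtggcggc
sequence 18544: Cgtgggttcgaatcc
sequence 22415: Cgccgtcggcgctgcc

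All 3 were rare and reached 10 reads only in the 5 traditional DCHP libraries, so the rule admitted them through the group in which they are high, and no fold or test is given. Sequence 10163 had 0.206, 0, 0.0403, 0.0882 and 0.248 RPM in traditional control and 0.906, 2.87, 1.09, 1.32 and 1.70 RPM in traditional DCHP libraries. Sequence 18544 had 0.0633 ± 0.0562 and 0.765 ± 0.236 RPM (SD, n = 5 each). Sequence 22415 had no read in the traditional control libraries and 0.325, 1.48, 0.310, 0.323 and 0.835 RPM in the DCHP libraries.

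The effect of DCHP was not shown to differ between methods for any member. In the interaction of method and exposure over all 19 libraries, edgeR called 0 members and 0% of all sequences, and 1807 members (5.94%) stood at an unadjusted p under 0.05, against 6.93% of all sequences. With the DCHP libraries paired between methods as a block, a fit chosen after seeing the data, it again called 0 members, and 1726 stood at an unadjusted p under 0.05. The 3 with the smallest unadjusted p were sequence 12988, shown above, and the pair printed here with the first base in capitals.
sequence 8073: Cccccgccgggcgtcgggac
sequence 16634: Agagctggcgctgcgggatgaa

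Sequence 12988 had 0 to 0.455 RPM in traditional control and 0 to 0.0926 RPM in traditional DCHP libraries, with 2 reads in all in the traditional DCHP group. Sequence 8073 had 0, 0.0378, 0.0231 and 0.0354 RPM in PANDORA-seq control and 0.549, 0.420, 0.0755, 0.419 and 0.181 RPM in PANDORA-seq DCHP libraries, and rose there by 3.51 ± 0.80 (edgeR, adjusted p = 0.00715). Its log2 change in traditional RNA-seq was −1.22 ± 0.50 (adjusted p = 0.698), and its interaction was 4.73 ± 0.96 (adjusted p = 0.712). Sequence 12988 holds no A or T, and sequence 8073 has a G and C content of 90.0%. Sequence 16634, of 22 nt, had 0.0378 to 0.301 RPM in PANDORA-seq control and 0.240 to 0.908 RPM in PANDORA-seq DCHP libraries, against 0.0384 to 0.484 RPM in traditional control libraries and a single traditional DCHP library with reads, at 0.0465 RPM. None of the 3 passed the threshold.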

How the data were processed

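Small RNA of mouse sperm was measured in 19 libraries. The authors deposited counts: every distinct cleaned read of 15 to 45 nt with its number of reads, not normalized and not annotated. The study's methods name SPORTS1.1, and settings of adapter removal are not given in the sources used here.

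From these counts, sequences with 10 or more reads in at least 4 libraries (158815) were matched to GENCODE small RNA transcripts of GRCm38 with a matcher written in Python 3.11.15 (numba 0.67.0), checked on simulated reads. Tests used edgeR 4.0.16 (quasi-likelihood, R 4.3.3) with total reads as library size, over all 158815 sequences, with Benjamini-Hochberg adjustment. The tests were also run on simulated counts. DESeq2 1.42.0, the miRNA total, TMM factors, other filters, exact matching, a replicate block and leaving out each library were the alternatives. Named sequences were the 10 with the highest level, the most abundant and longest of the 5 leading families, and 3 with the smallest p per comparison and direction. The members and lists were chosen with earlier results of these data known. Replicate numbers were used as a block only in alternative fits. Between the methods in DCHP sperm, same-numbered libraries deviated together (r = 0.126 to 0.238 in all 5 pairs over all sequences). Over the members r was 0.0202 in pair 4 and 0.152 to 0.227 in the others. The labels do not state these pairs, and the main fits did not use them. Read counts without molecular identifiers are not independent molecules. No 2 libraries of a group agreed within sampling noise.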

Additional observations from a re-analysis of the deposited data

Results flagged for a closer look

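In 64 groups of 4 or 5 libraries, 11 held a library far from the others of its group. The rule set the gap to the next library against the range of the group. About 1 in 20 groups would be flagged for normally distributed values, which RPM levels need not be. The 64 groups are not independent, because the sequences named belong to the families named. Traditional DCHP library 2 stood high for family 1 (5289 RPM, next 1682) and for its members sequence 1 (2030 RPM, next 383), sequence 2 (448 RPM, next 142) and sequence 10 (348 RPM, next 91.9). Library 5 of the traditional groups stood high for family 3, at 18753 RPM in control (next 11151) and 21887 RPM in DCHP (next 12268). In the same family, sequence 4 was high in traditional control library 5 (9916 RPM, next 6028) and sequence 9 in traditional DCHP library 5 (4299 RPM, next 1938). PANDORA-seq DCHP library 4 stood high for family 4 (6578 RPM, next 3823) and its member sequence 6 (5884 RPM, next 3380). PANDORA-seq control library 3 was low for sequence 4 (55.6 RPM, next 93.3).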

How the results depend on the processing

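In PANDORA-seq, the 86 members called with DCHP became 26 with DESeq2, 16 among sequences with 10 reads in at least 8 libraries (165 and 184 of all sequences), and 45 to 111 when single libraries were left out (45 without control 1, 55 without control 3, 57 without control 4). Without control 1 and 4 together, chosen after seeing the data, 16 were called. Replicate numbers entered only alternative fits, as a block. Same-numbered libraries deviated together in every pair only between the methods in DCHP sperm, and these correlations were weak. A replicate block gave 31 calls with DCHP in PANDORA-seq (418 of all sequences) and 2 by the traditional method (4 of all), where the libraries share only a number. Between methods in DCHP sperm it gave 27150 (89.2%, against 90.1% of all sequences). Same-number correlations between exposures were −0.411 to 0.224 in PANDORA-seq and −0.358 to 0.139 by the traditional method. In traditional RNA-seq 0 became 55 with DESeq2 (247 of all sequences) and stayed 0 without any single library. Between methods, the 8-library filter left 15288 members of 89523 sequences. It called 12664 members in control (82.8%, against 85.7% of all) and 13133 in DCHP (85.9%, against 88.1%). Leaving out single libraries gave 25145 to 25985 in control (82.6% to 85.4%, against 83.4% to 86.8% of all sequences). In DCHP it gave 26503 to 27121 (87.1% to 89.1%, against 88.3% to 90.2%). The interaction gave 0 under all alternatives run, among them a replicate block of the DCHP libraries between methods, chosen after seeing the data. DESeq2 was not run for it. As a share of 15 to 24 nt reads, members were 63.3%, 60.5%, 31.7% and 33.5% in PANDORA-seq control, PANDORA-seq DCHP, traditional control and traditional DCHP. Reading 18S on its annotated strand, chosen after seeing the data, gave 13% and 11.4% of all reads in PANDORA-seq control and DCHP, and exact matching 7.60% in traditional control. For named sequences, 939 values kept their side of the threshold, 7 lost it, 3 gained it and 2 reversed, both for sequence 156 with the miRNA total as library size (0.92 and 0.73 on the log2 scale between methods in control and DCHP sperm). The causes were not tested.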
